A study of Mus musculus with 2 samples.

Results

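The genes described here make and carry the glycans of the secretory pathway. They are the Golgi glycosyltransferases and sulfotransferases, together with the syndecan and glypican core proteins, and they were chosen by gene symbol alone. Of the 23282 rows of the deposited count tables, 126 matched, of which 116 encode enzymes and 10 encode cores. RNA was measured in 3T3-L1, a line of mouse fibroblasts able to differentiate into fat cells in culture, and the labels call the cells adipocytes. One culture was given an siRNA against Pink1, the gene of a kinase that tags failing mitochondria for degradation, and the other a control siRNA. The time after transfection and the stage of differentiation are not given in the sources used here. Each culture gave 1 library of QuantSeq 3′ tags, with 14214768 counts from the Pink1 siRNA cells and 13803174 from the control siRNA cells. Neither group was replicated, so no p-value is given, every interval below covers counting error only unless it is said to be widened, and no difference has a replicate check.

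Glycosyltransferases add single sugars from nucleotide donors to proteins and lipids as these pass through the Golgi, and sulfotransferases add sulfate to chosen positions on the chains. Most steps are served by families of related enzymes, and which family members a cell expresses sets which chains it can build. Heparan sulfate and chondroitin sulfate grow on core proteins such as the syndecans, which span the membrane, and the glypicans, which are held by a lipid anchor. In fibroblasts and fat cells these chains bind growth factors, lipoprotein lipase and matrix proteins.

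The label check came first. Pink1 had 351 counts (25.1 CPM, that is, counts scaled to library size) in Pink1 siRNA cells, against 511 counts (36.5 CPM) in control siRNA cells. The ratio, here always Pink1 siRNA over control siRNA, was 0.687 with a 95% counting interval of 0.598 to 0.788, a level 31.3% lower. A widened interval, which also allows for how far genes of similar level differed between the libraries, ran from 0.445 to 1.05 and included 1. Of 10 adipocyte markers 9 were measured, with Adipoq at 308 against 310 CPM and Lpl at 815 against 817 CPM. The ratios of the 9 lay above 1 for 5 and below 1 for 4. Retn had 562 against 376 counts (ratio 1.49, 1.31 to 1.71) and Cd36 621 against 461 (1.35, 1.19 to 1.52). The median log2 ratio of the 9 was 0.05, and 1 passed the smaller rule, the lipid droplet gene Plin1, lower at 167 against 275 counts. The adipocyte gene Lep was at 0 in both. All 7 preadipocyte and fibroblast markers had ratios above 1, with a median log2 ratio of 0.13 and none past either rule. The widened intervals of 3 of them lay above 1, those of Thy1 (ratio 1.47), Col1a1 (1.15) and the preadipocyte gene Dlk1, at 9329 CPM in Pink1 siRNA cells and 8326 CPM in control siRNA cells. Over all measured rows, 2.09% had a widened interval above 1. Whether these marker differences bear on the glycan genes was not tested. Markers of other cell types were at or near 0: the 5 endothelial markers summed to 7 against 8 counts, the 4 epithelial markers to 0 against 3 and the 5 macrophage markers to 46 against 62, of which Cd68 held 23 and 20, with Adgre1 at 0 in both.

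Most of these glycan genes were at nearly the same level in the Pink1 siRNA and control siRNA cells. Of the 126 members, 66 were measured, meaning at least 40 counts in the libraries together, 28 had fewer counts than that and 32 had none in either library. The 2-fold rule called a measured gene where the libraries differed at least 2-fold and the counting interval did not contain 1. By that rule 1 member, the sialyltransferase gene St3gal6, was higher, against 1.63% of all 11660 measured rows, and 0 were lower, against 2.39% of all rows. By a smaller rule of 1.5-fold, 4 members were higher and 1 was lower, against 5.43% and 6.64% of all measured rows. These shares are near or below the background, so the counts do not set the members apart from other genes. Ratios within 1.5-fold were found for 61 of the 66 (92.4%), beside 87.0% of all measured rows. The median log2 ratio of the measured members was 0.05 (interquartile range -0.08 to 0.25), beside 0.00 (-0.21 to 0.21) over all measured rows. In bulk cultures, fewer cells of a type and less RNA per cell cannot be told apart.

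**Figure D1:**
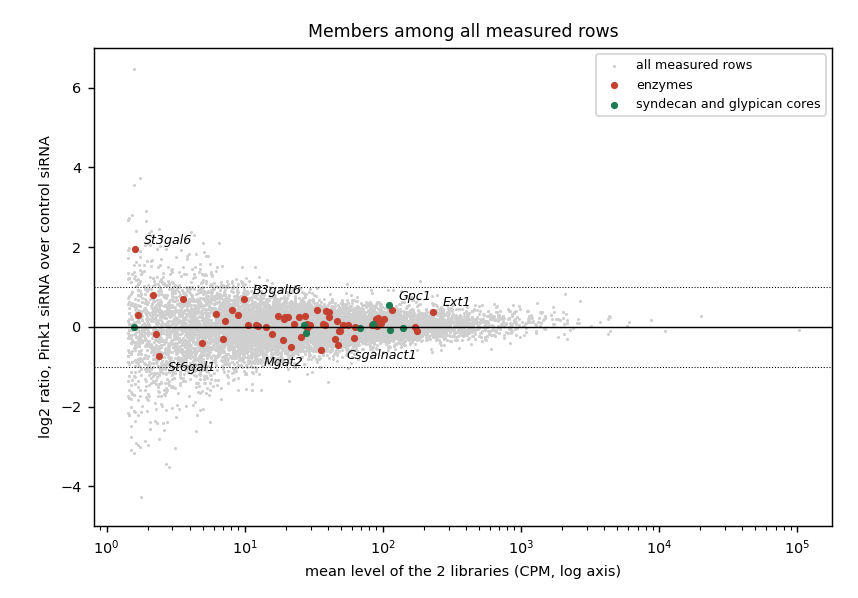
Log2 ratio (Pink1 siRNA over control siRNA) against the mean level of the 2 libraries in CPM on a log axis, for all 11660 measured rows (grey), the 58 measured enzymes (red) and the 8 measured cores (green), with dotted lines at 2-fold. The enzymes and cores lie within the cloud of all rows, and St3gal6, at 2.57 against 0.642 CPM, is the 1 member beyond a dotted line.

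The levels themselves covered more than 2 orders of magnitude. QuantSeq reads a tag from the 3′ end of a transcript, so CPM of tags was not divided by transcript length. The most abundant member was Ext1, at 264 CPM in Pink1 siRNA cells and 202 CPM in control siRNA cells, followed by Galnt1, St3gal1, Sdc2, Mgat1, Sdc4, Gpc1, St3gal2, Mgat4b and Chst2. Those 10 held 44.8% of the members' counts in Pink1 siRNA cells and 42.6% in control siRNA cells. At the low end, 14 measured members averaged under 10 CPM. The median level of the 66 measured members, 29.0 CPM, was close to the 27.2 CPM of all measured rows.

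**Figure D2:**
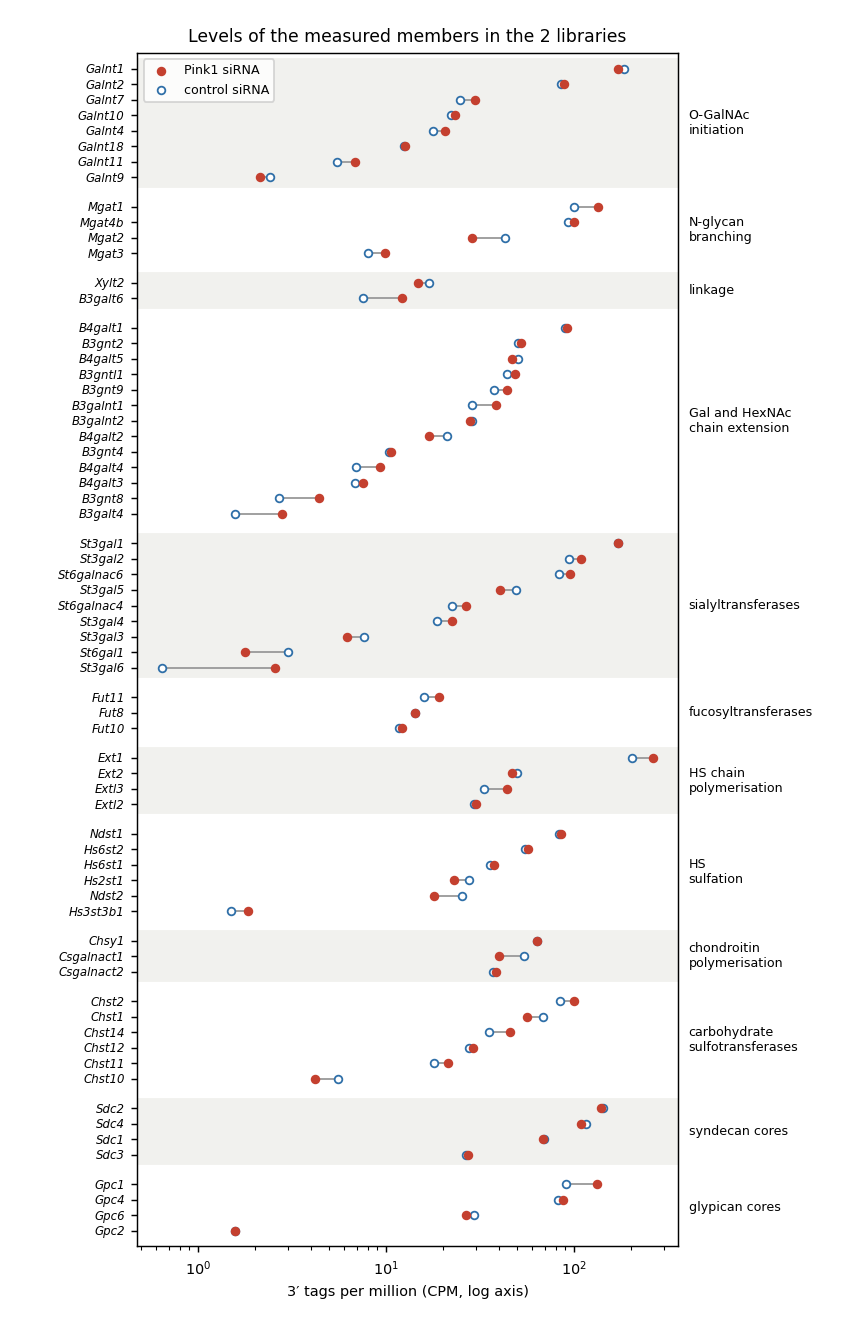
Level of each of the 66 measured members in CPM on a log axis, in Pink1 siRNA cells (filled red) and control siRNA cells (open blue), grouped by the step each serves. The 2 points of a gene mostly touch, and the widest gap is that of St3gal6, at 2.57 against 0.642 CPM.

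Mucin-type O-glycosylation is started by the Galnt family, which attaches N-acetylgalactosamine to serine or threonine. Of 16 members 8 were measured, none passed either rule, and their median log2 ratio was 0.06. Galnt1 had 2414 counts (172 CPM) in Pink1 siRNA cells and 2583 counts (184 CPM) in control siRNA cells, a ratio of 0.935 (0.884 to 0.988). Galnt2, the other broadly acting starter, had 1233 against 1189 counts (88.0 and 84.9 CPM), a ratio of 1.04 (0.957 to 1.12). Of the family's tags, Galnt1 held 48.2% in Pink1 siRNA cells and 52.0% in control siRNA cells. Galnt7 and Galnt10, which prefer peptides that already carry a sugar, had 419 against 346 counts (29.9 and 24.7 CPM) and 327 against 310 counts. Of the 8, Galnt7 was the one whose counting interval lay above 1 (ratio 1.21, 1.05 to 1.40). Galnt4, which shares 420 exonic bases with Poc1b (357 against 415 counts), had 288 against 250 counts, and Galnt18 had 177 against 175. The largest log2 ratio in size was that of Galnt11, 0.32, from 96 against 77 counts (6.85 and 5.50 CPM; ratio 1.25, 0.914 to 1.71), and Galnt9 had 30 against 34. Below the minimum, Galnt12 had 15 against 2 counts, Galnt13 5 against 0 and Galnt3 1 against 0, and Galnt5, Galnt6, Galnt14, Galnt15 and Galnt16 had 0 in both libraries. Where no tag was counted, a level of up to 3 counts (0.214 CPM) in that library is still allowed.

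N-glycan branching held genes of an earlier and a later step whose ratios lay on opposite sides of 1. Mgat1 encodes the enzyme that adds the first N-acetylglucosamine of hybrid and complex N-glycans, and Mgat2 one that adds another at a later step. Mgat1 had 1883 counts (134 CPM) in Pink1 siRNA cells against 1398 counts (99.8 CPM) in control siRNA cells. Mgat2 had 402 counts (28.7 CPM) in Pink1 siRNA cells against 600 counts (42.8 CPM) in control siRNA cells. The first was therefore higher and the second lower, with ratios of 1.35 (1.26 to 1.44) and 0.670 (0.589 to 0.762). Mgat2 was thus 1.49-fold lower, just short of the smaller rule. Both widened intervals reached 1, narrowly, at 0.973 to 1.87 for Mgat1 and 0.442 to 1.01 for Mgat2. Within a library, Mgat1 tags outnumbered Mgat2 tags 4.68-fold (4.20 to 5.23) in Pink1 siRNA cells and 2.33-fold (2.12 to 2.57) in control siRNA cells. Mgat4b, which adds a further antenna, had 1396 against 1309 counts (99.7 and 93.4 CPM; ratio 1.07, 0.988 to 1.15), and Mgat3, which adds the bisecting residue, had 139 against 113. The paralogue Mgat4a had 24 against 6 counts, Mgat4c 17 against 15 and Mgat5 4 against 9, all under the minimum, and Mgat4d, Mgat4e and Mgat5b had 0 in both.

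The start regions of this pair are shown because the genes act in sequence and had ratios on opposite sides of 1. They come from RefSeq (GRCm38.p6), run 5′ to 3′ from 250 bases before to 50 bases after an annotated start, and are in lower case with GC boxes (GGGCGG on either strand) in capitals. The Mgat1 window is the most upstream of its 3 annotated starts, at chr11:49243941-49244240 on the plus strand, and Mgat2 has 1, at chr12:69183908-69184207 on the plus strand.
Mgat1: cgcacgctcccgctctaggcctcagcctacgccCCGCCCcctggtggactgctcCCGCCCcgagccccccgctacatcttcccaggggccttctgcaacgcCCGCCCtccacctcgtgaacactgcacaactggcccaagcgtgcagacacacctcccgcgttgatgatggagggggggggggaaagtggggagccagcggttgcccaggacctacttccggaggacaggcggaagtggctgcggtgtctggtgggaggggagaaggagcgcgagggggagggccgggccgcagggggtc
Mgat2: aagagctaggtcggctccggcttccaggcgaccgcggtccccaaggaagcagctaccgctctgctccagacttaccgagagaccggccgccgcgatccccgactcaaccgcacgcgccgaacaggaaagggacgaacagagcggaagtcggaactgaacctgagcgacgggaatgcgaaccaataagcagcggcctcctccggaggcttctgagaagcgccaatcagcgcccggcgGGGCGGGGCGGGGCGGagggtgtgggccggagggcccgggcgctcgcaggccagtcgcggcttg
Each window held 3 GC boxes, and the Mgat2 window held 37 CpG dinucleotides against 22 in that of Mgat1. Neither held a TATAAA match on either strand.

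The linkage tetrasaccharide joins every heparan sulfate and chondroitin sulfate chain to its core protein, and its genes were weakly tagged. Xylt2, which attaches the first xylose, stood at 14.8 CPM in Pink1 siRNA cells against 16.8 CPM in control siRNA cells, a ratio of 0.882 (0.728 to 1.07), while its paralogue Xylt1 had 0 in both. B3galt6, which adds the second galactose, was higher by the smaller rule, at 171 counts (12.2 CPM) in Pink1 siRNA cells against 106 counts (7.57 CPM) in control siRNA cells. Its ratio was 1.61 (1.26 to 2.08), with a widened interval of 0.826 to 3.25. B4galt7, which adds the first galactose, had 11 against 5 counts and was not measured.

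Galactose and N-acetylhexosamine chain extension was the broadest class, with 13 of 25 members measured and a median log2 ratio of 0.14. B4galt1, the main galactosyltransferase of N-glycan antennae, had 1284 against 1256 counts (91.7 and 89.7 CPM). B3gnt2, the main poly-N-acetyllactosamine synthase, had 735 against 707 (52.5 and 50.5 CPM), and B4galt5, a lactosylceramide synthase, had 659 against 704 (47.0 and 50.3 CPM). These 3 lay within 1.07-fold of equality, with ratios of 1.02 (0.945 to 1.11), 1.04 (0.936 to 1.15) and 0.936 (0.841 to 1.04). B3gntl1, with 683 against 617 counts, shares 237 exonic bases with Tbcd. Of the rest, B3galnt1, the globoside synthase, had 542 against 401 counts with a ratio of 1.35 (1.19 to 1.54), and B4galt2 was at 16.8 against 21.1 CPM with a ratio of 0.798 (0.669 to 0.949). B3galnt2, which acts on the O-mannose glycan of dystroglycan, had 392 against 400. B3gnt9, B3gnt4, B4galt4 and B4galt3 had between 96 and 620 counts per library and log2 ratios of 0.04 to 0.42.

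The members of this class past the smaller rule were 2 weakly tagged genes, both higher. B3gnt8, which extends branched N-glycans, had 62 against 38 counts (4.43 and 2.71 CPM), a ratio of 1.62 (1.07 to 2.51). It shares 1171 exonic bases with Bckdha on the opposite strand (214 against 209 counts), and whether counting used strand is not given in the sources used here, so its counts are uncertain. B3galt4, a ganglioside galactosyltransferase, had 39 against 22 counts (2.78 and 1.57 CPM), a ratio of 1.76 (1.03 to 3.14). The widened intervals of both included 1. Under the minimum, B3galt2 had 2 against 25 counts, and 679 of its exonic bases are shared with Cdc73 on the opposite strand (435 against 521 counts). B4galt6 had 14 against 17 counts, B4galnt1 12 against 10, B4galnt2 5 against 13, B3galt1 4 against 0, B4galnt4 3 against 0, B3galt5 0 against 4 and B3gnt6 0 against 2. B3gnt3, B3gnt5, B3gnt7 and B4galnt3 had none.

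Sialyltransferases cap glycans with sialic acid, and as a class they were the most heavily tagged, summing to 476 CPM in Pink1 siRNA cells and 453 CPM in control siRNA cells. St3gal1, which caps the simplest mucin-type O-glycan, had 2406 counts in each library (172 CPM), with a counting interval of the ratio from 0.945 to 1.06. St3gal2, which acts on O-glycans and gangliosides, had 1527 against 1325 counts (109 and 94.6 CPM) with a ratio of 1.15 (1.07 to 1.24), and the ganglioside enzyme gene St6galnac6 had 1328 against 1162 (94.8 and 83.0 CPM) with 1.14 (1.06 to 1.24). St3gal5, which makes the first ganglioside from lactosylceramide, lay on the other side of 1 with 564 against 691 counts, a ratio of 0.816 (0.729 to 0.914). St6galnac4 had 374 against 315 counts and St3gal4 314 against 263, with log2 ratios of 0.25 and 0.26, and St3gal3 had 87 against 107.

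The lone member past the 2-fold rule was the least tagged measured sialyltransferase. St3gal6 had 36 counts (2.57 CPM) in Pink1 siRNA cells against 9 counts (0.642 CPM) in control siRNA cells, a ratio of 3.84 with a counting interval of 1.89 to 9.44. The widened interval was 0.652 to 58.9 and included 1. St3gal6 lies on chromosome 16 and shares 1603 exonic bases with Dcbld2 on the opposite strand, which had 1337 against 1125 counts, so tags of the pair may not be separable. The lone member lower by the smaller rule was St6gal1, which adds sialic acid in the other linkage to N-glycans. It had 25 counts (1.79 CPM) in Pink1 siRNA cells against 42 counts (3.00 CPM) in control siRNA cells, a ratio of 0.600 with an interval from 0.348 to an upper bound just under 1. St3gal1 had 172 CPM in either library, so both genes are minor among the sialyltransferases in tag number. St6galnac1 had 7 against 15 counts, St6galnac2 0 against 4, and St6gal2, St6galnac3 and St6galnac5 had 0 in both libraries.

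The St3gal6 start regions are printed as those of the only member past the 2-fold rule. RefSeq lists 2 starts, upstream at chr16:58524204-58524503 and downstream at chr16:58523377-58523676, both on the minus strand, with GC boxes in capitals. Beside them is that of Galnt5, at chr2:57997905-57998204 on the plus strand, as an example of a member with 0 counts.
St3gal6 upstream: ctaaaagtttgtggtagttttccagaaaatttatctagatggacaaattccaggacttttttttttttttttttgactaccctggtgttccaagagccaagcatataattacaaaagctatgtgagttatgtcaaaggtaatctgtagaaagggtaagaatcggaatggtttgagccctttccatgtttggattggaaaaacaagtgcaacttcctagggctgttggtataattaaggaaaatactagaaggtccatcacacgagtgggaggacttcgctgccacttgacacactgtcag
St3gal6 downstream: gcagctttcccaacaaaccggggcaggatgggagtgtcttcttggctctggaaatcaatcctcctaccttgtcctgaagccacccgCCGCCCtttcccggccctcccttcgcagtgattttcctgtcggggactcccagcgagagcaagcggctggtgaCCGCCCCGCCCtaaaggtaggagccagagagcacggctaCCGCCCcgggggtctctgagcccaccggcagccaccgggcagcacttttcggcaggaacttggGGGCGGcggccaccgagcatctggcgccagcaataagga
Galnt5: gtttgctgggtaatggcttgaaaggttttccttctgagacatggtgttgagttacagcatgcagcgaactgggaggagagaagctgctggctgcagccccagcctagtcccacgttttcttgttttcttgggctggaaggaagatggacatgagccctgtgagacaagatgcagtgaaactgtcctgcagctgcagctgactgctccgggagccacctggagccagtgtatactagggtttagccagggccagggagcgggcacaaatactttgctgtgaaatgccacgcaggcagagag
The upstream St3gal6 window held 0 GC boxes and 3 CpG, and the downstream one 5 boxes and 20 CpG. The Galnt5 window held 0 boxes and 5 CpG, fewer than the median of 16 CpG over windows of members at 0.

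Start regions were richer in CpG for measured members than for members under the minimum or at 0. Windows were available for 93 of the 126 members. The median observed over expected CpG was 0.778 over the 61 windows of measured members, 0.591 over the 30 of members under the minimum and 0.587 over the 28 of members at 0. The same measure was 0.762 over windows of all measured rows and 0.230 over those of all rows at 0. A GC box was present in 72.1% of the windows of measured members and 57.1% of those of members at 0, beside 63.2% of the windows of all measured rows and 21.9% of those of all rows at 0. It was 46.7% for members under the minimum, below that of members at 0. The TATAAA letters occurred in 3 of the members' 119 windows, of which 1 was among the 61 of measured members (1.64%) and 1 among the 28 of members at 0 (3.57%). All measured rows had 6.98% and all rows at 0 had 21.4%. Over all 32851 windows of the table, 35.7% held a GC box and 13.6% TATAAA. A match is a description of the letters only.

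Fucosyltransferases were at low levels and differed little, with 3 of 9 members measured. Fut8, which adds the core fucose of N-glycans, had 199 against 200 counts (14.2 and 14.3 CPM), a ratio of 0.995 (0.814 to 1.22). Fut11 had 269 against 222 counts (19.2 and 15.8 CPM) with a ratio of 1.21 (1.01 to 1.45). Fut10 had 171 against 165 counts (12.2 and 11.8 CPM), a ratio of 1.04 (0.832 to 1.29). Fut7, the leukocyte enzyme for selectin ligands, had 5 against 11 counts and Fut2 6 against 7, while Fut1, Fut4, Fut9 and the pseudogene Fut4-ps1 had none.

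Heparan sulfate polymerisation had the largest difference in summed CPM of the 12 classes, and most of it lay in Ext1. Ext1 and Ext2 encode the subunits of the copolymerase that alternates the sugars of the chain, and Extl3 the enzyme that commits a linkage region to heparan sulfate. Ext1 had 3697 counts (264 CPM) in Pink1 siRNA cells against 2834 counts (202 CPM) in control siRNA cells, a ratio of 1.30 (1.24 to 1.37). Ext2 had 656 against 701 counts (46.83 and 50.04 CPM), a ratio of 0.936 (0.840 to 1.04). The partner subunits thus had ratios on opposite sides of 1, and Ext1 tags outnumbered Ext2 tags 5.64-fold (5.19 to 6.13) in Pink1 siRNA cells and 4.04-fold (3.72 to 4.40) in control siRNA cells. Extl3 had 618 against 465 counts (44.1 and 33.2 CPM), a ratio of 1.33 with a lower bound of 1.18, and Extl2, which acts on the linkage region, had 422 against 410. The class summed to 386 CPM in Pink1 siRNA cells and 315 CPM in control siRNA cells, a ratio of 1.23 (1.18 to 1.28). The widened intervals of Ext1 (0.978 to 1.74) and Extl3 (0.899 to 1.98) included 1. Extl1, under the minimum, had 13 against 0 counts, which is 4.33-fold higher when the count of 0 is taken as 3. The counting interval of its ratio had a lower bound of 3.05. Its widened interval had a lower bound of 0.251 and included 1.

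**Figure D3:**
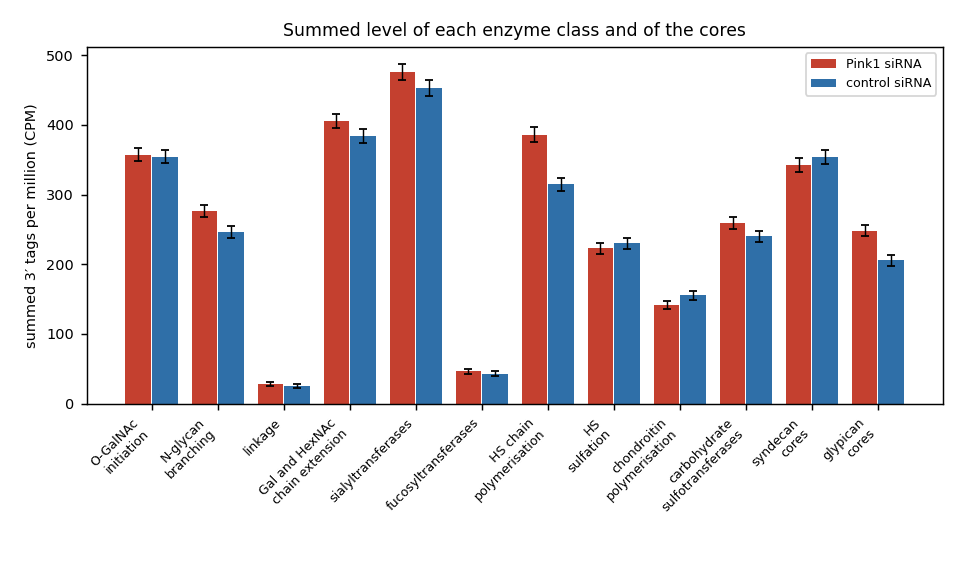
Summed level in CPM of the members of each class, in Pink1 siRNA cells (red, left) and control siRNA cells (blue, right), with bars from 0 and exact Poisson 95% intervals that cover counting error only. The widest proportional gaps are those of heparan sulfate (HS) polymerisation, at 386 against 315 CPM, and the glypicans, at 248 against 206 CPM.

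Heparan sulfate sulfation showed no such difference in its sum, at 223 CPM in Pink1 siRNA cells and 230 CPM in control siRNA cells. Ndst1 and Ndst2 remove acetyl groups from glucosamine and put sulfate in their place, the first modification of the chain. Ndst1 had 1189 against 1159 counts (84.9 and 82.7 CPM), a ratio of 1.03 (0.945 to 1.11). Ndst2 had 251 counts (17.9 CPM) in Pink1 siRNA cells against 354 counts (25.3 CPM) in control siRNA cells, a ratio of 0.710 (0.601 to 0.836, widened 0.436 to 1.14). The genes of later steps were Hs6st2 (797 against 772 counts), Hs6st1 (529 against 500) and Hs2st1 (324 against 388), with log2 ratios of 0.05, 0.08 and -0.26. Hs6st2 was at 56.9 against 55.1 CPM (ratio 1.03, 0.934 to 1.14) and Hs6st1 at 37.8 against 35.7 CPM (1.06, 0.935 to 1.20). The enzymes of the rare last sulfation had few tags or none. Hs3st3b1 had 26 against 21 counts and Hs3st3a1 5 against 27, and these are close paralogues whose reads could be shared. Hs3st4 had 1 against 0, and Hs3st1, Hs3st2, Hs3st5 and Hs3st6 had none. Hs6st3 had none either, Ndst3 had 4 against 0 and Ndst4 0 against 4.

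Chondroitin polymerisation had a sum on the lower side, at 142 CPM in Pink1 siRNA cells and 155 CPM in control siRNA cells, a ratio of 0.911 (0.856 to 0.968). That difference lay in Csgalnact1, which starts the chondroitin chain on the linkage region. Csgalnact1 had 558 counts (39.8 CPM) in Pink1 siRNA cells against 762 counts (54.4 CPM) in control siRNA cells, a ratio of 0.733 (0.655 to 0.818, widened 0.504 to 1.06). Its paralogue Csgalnact2 had 540 against 522 counts (38.6 and 37.3 CPM) and the polymerising enzyme gene Chsy1 885 against 894 (63.2 and 63.8 CPM), with ratios of 1.03 (0.916 to 1.17) and 0.990 (0.901 to 1.09). Chsy3 had 0 in both libraries.

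Among carbohydrate sulfotransferases, 6 of 14 were measured and none passed either rule. Chst2, which sulfates N-acetylglucosamine, was the most tagged, with 1394 against 1187 counts (99.5 and 84.7 CPM) and a ratio of 1.17 (1.09 to 1.27). Chst1, the keratan sulfate galactose sulfotransferase, had 788 against 956 counts (56.3 and 68.2 CPM) and a ratio of 0.824 (0.749 to 0.907). Chst14, which acts on dermatan sulfate, had 642 against 496 counts (45.8 and 35.4 CPM) and a ratio of 1.29 (1.15 to 1.46). The chondroitin sulfotransferase genes Chst12 and Chst11 had 405 against 385 and 298 against 251 counts. The largest log2 ratio in size was -0.40, for Chst10, with 59 against 78 counts (4.21 and 5.57 CPM) and a ratio of 0.758 (0.530 to 1.07). Chst15, which adds a further sulfate to chondroitin, had 27 counts in Pink1 siRNA cells and 2 in control siRNA cells and fell under the minimum. Chst8 had 8 against 3 counts and Chst3 6 against 4, and Chst4, Chst5, Chst7, Chst9 and Chst13 had none.

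Among the measured core proteins, Gpc1 was the one whose counting interval left out 1. All 4 syndecans were measured and lay within 1.07-fold of equality. Sdc2 had 1938 against 1992 counts (138 and 142 CPM), Sdc4 1523 against 1619 (109 and 116 CPM), Sdc1 956 against 968 (68.3 and 69.1 CPM) and Sdc3 381 against 371. The ratios of the first 3 were 0.973 (0.914 to 1.04), 0.941 (0.877 to 1.01) and 0.988 (0.902 to 1.08). Among glypicans, Gpc1 stood higher in Pink1 siRNA cells, at 1855 counts (132 CPM), against 1274 counts (90.9 CPM) in control siRNA cells. Its ratio was 1.46 (1.36 to 1.57), short of the smaller rule. It was the 1 member whose widened interval, 1.04 to 2.05, left out 1 on the upper side, where 2.09% of all measured rows did, and 0 did so on the lower side, where 2.01% did. Gpc4 had 1219 against 1152 counts (87.0 and 82.2 CPM), a ratio of 1.06 (0.976 to 1.15), and Gpc6 372 against 411 (26.6 and 29.3 CPM), a ratio of 0.905 (0.785 to 1.04). Gpc1 tags outnumbered those of Gpc4 1.52-fold (1.41 to 1.64) in Pink1 siRNA cells and 1.11-fold (1.02 to 1.20) in control siRNA cells. Gpc2 had 22 counts in each library, Gpc3 8 against 20 and Gpc5 none.

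**Figure D4:**
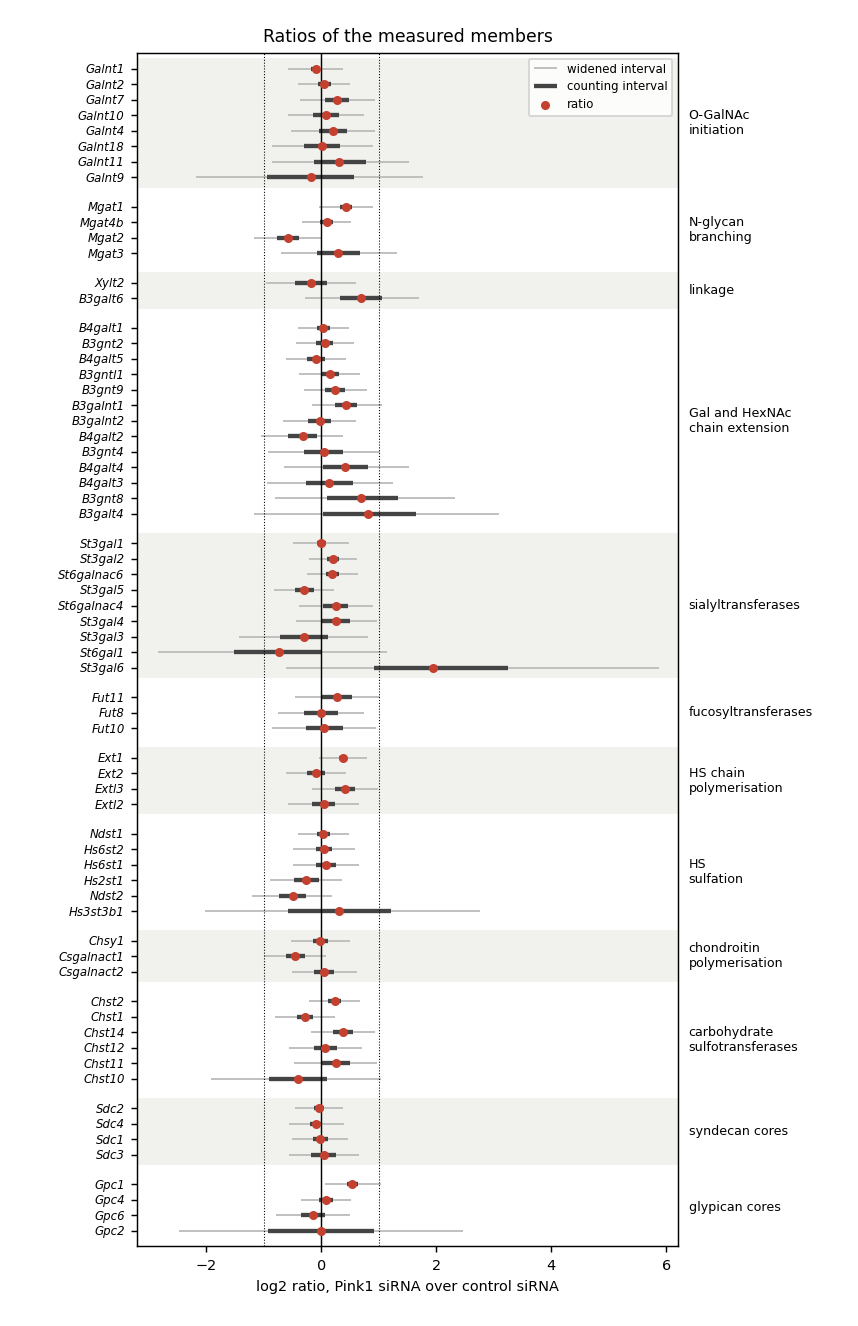
Log2 ratio (Pink1 siRNA over control siRNA) of the 66 measured members with the 95% counting interval (dark) and the widened interval (grey), with dotted lines at 2-fold. Counting intervals lie above 1 for 20 members (30.3%) and below 1 for 9 (13.6%), beside 26.2% and 24.9% of all measured rows, and the widened interval leaves out 1 for Gpc1 alone.

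Within each class the member with most tags was the same in both libraries. Ext1 held 68.4% of the polymerisation class in Pink1 siRNA cells and 64.3% in control siRNA cells, and Ndst1 held 38.0% and 35.9% of the sulfation class. Gpc1 held 53.4% (exact binomial interval 51.7 to 55.0) of the glypican tags in Pink1 siRNA cells and 44.3% (42.4 to 46.1) in control siRNA cells. Shares also differed for other members, among them Mgat2, at 10.4% (9.46 to 11.4) in Pink1 siRNA cells and 17.4% (16.1 to 18.7) in control siRNA cells. Csgalnact1 was at 28.1% (26.2 to 30.2) and 35.0% (33.0 to 37.0). In the weakly tagged linkage class, Xylt2 held 53.3% (48.2 to 58.4) in Pink1 siRNA cells and 68.0% (62.8 to 72.9) in control siRNA cells. B3galt6 went the other way there, at 43.8% (38.9 to 48.9) and 30.5% (25.7 to 35.7). Sdc2 led the syndecans with 40.4% in Pink1 siRNA cells and 40.2% in control siRNA cells.

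**Figure D5:**
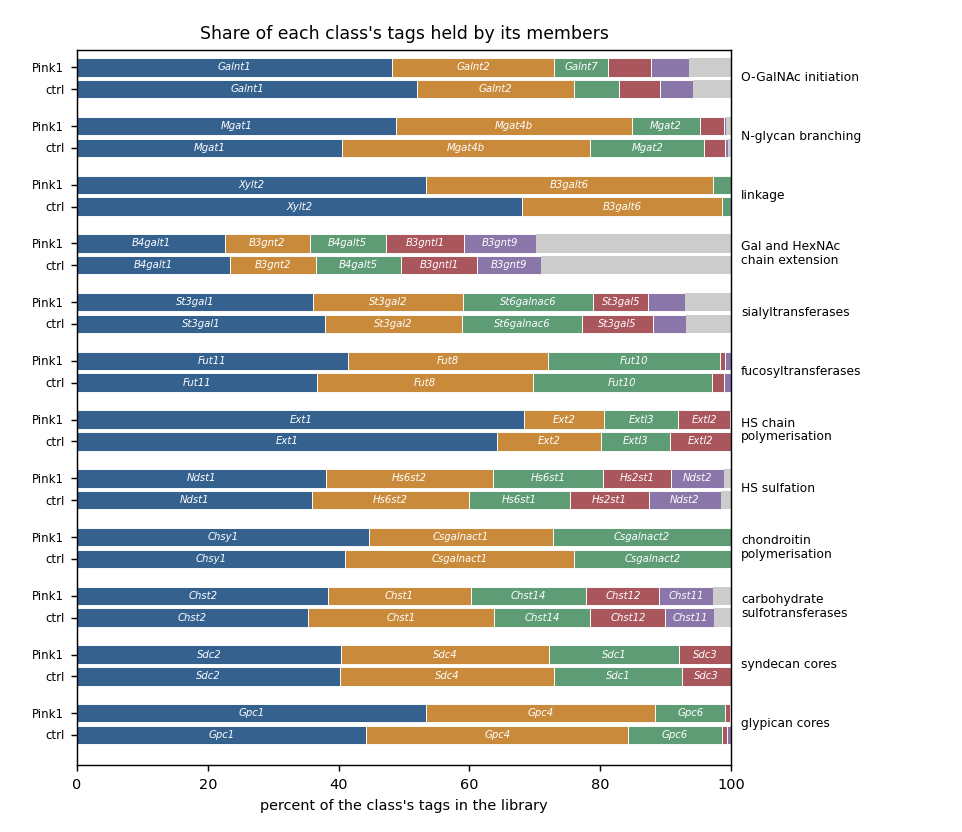
Percent of each class's tags held by its 5 most tagged members in control siRNA cells (coloured) and by the others (grey), with Pink1 siRNA cells (Pink1) above control siRNA cells (ctrl) for each class. The leading member was the same in the 2 libraries for each class, from Galnt1 at 48.2% against 52.0% to Gpc1 at 53.4% against 44.3%.

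Some members share a gene structure that the choice by symbol did not use. In the GENCODE M21 annotation, 15 of the 66 measured members (22.7%) have their longest coding sequence in a single exon, beside 5.48% of the 10752 measured rows with an annotated coding sequence. They are Mgat1, Mgat2, Mgat3, B3galt6, B3gnt2, Chst1, Chst2, Chst12, Chst14, Galnt4, B3galnt1, B3galt4, B3gnt4, B3gnt8 and B3gnt9. The median log2 ratio of these 15 was 0.24, and that of the other measured members 0.04. The same split of all measured rows gave 0.03 and 0.00. Whether the split bears on the ratios was not tested. Of the measured members, 9 share exonic bases with another gene of at least 40 counts, which makes those counts uncertain. They are B3galnt2, B3gnt4, B3gnt8, B3gnt9, B3gntl1, B4galt2, Galnt4, St3gal4 and St3gal6. Of these, B3gnt4, B3gnt8, B3gnt9 and Galnt4 are also among the members with a single coding exon.

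Other genes of the pathway were mostly level as well. All 25 genes of sugar nucleotide and sulfate donor synthesis were measured (median log2 ratio 0.09), with 1 higher and 1 lower by the 2-fold rule, and 2 higher and 1 lower by the smaller rule. Gfpt2, which feeds the hexosamine pathway, had 51 counts (3.64 CPM) in Pink1 siRNA cells against 17 counts (1.21 CPM) in control siRNA cells. Its far more abundant paralogue Gfpt1 lay on the other side of 1. Gfpt1 had 2143 against 2518 counts (153 and 180 CPM), a ratio of 0.851 (0.803 to 0.902). Uxs1, which makes the xylose donor of the linkage region, had 22 counts (1.57 CPM) in Pink1 siRNA cells against 46 counts (3.28 CPM) in control siRNA cells. The widened intervals of Gfpt2, Gfpt1 and Uxs1 included 1.

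Of 15 nucleotide sugar and sulfate transporters (median -0.08), Slc35b3, which carries the sulfate donor into the Golgi, was lower by the smaller rule with 127 against 212 counts. None of the 16 measured genes among 30 other Golgi glycan enzymes passed either rule (median 0.13), and none of the 15 measured among 25 other proteoglycan cores did (median 0.12). In that last list Vcan had 31058 against 29264 counts and Dcn 20377 against 19055. Nrp1, a neuropilin, had 11145 against 7706 counts, and its widened interval (1.03 to 2.04) lay above 1. So did that of Slc35e3 among the transporters (1.05 to 1.60), with 27384 against 21140 counts. Has3, a hyaluronan synthase, was lower by the 2-fold rule among 11 measured genes of other glycosaminoglycan enzymes (median -0.01). It had 17 against 57 counts (1.21 and 4.07 CPM). Because Has3 shares 352 exonic bases with Chtf8 on the opposite strand (2959 against 2867 counts), its counts are uncertain. The more abundant synthase gene Has2 had 853 against 805 counts (60.9 and 57.5 CPM), a ratio of 1.06 (0.961 to 1.17). The widened intervals of Slc35b3 and Has3 included 1.

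Genes for Golgi structure and enzyme retention had a median of 0.01 over 25 measured of 26, with 0 past the 2-fold rule in either direction. Cog7, of the tethering complex that keeps glycosyltransferases in place, was higher by the smaller rule with 324 against 213 counts. Cog1 of the same complex (144 against 275), the golgin gene Golga3 (327 against 552) and Golph3l (263 against 420) were lower by it, with ratios of 0.525, 0.593 and 0.627. The widened intervals of these 3 lay below 1, at upper bounds of 0.880, 0.908 and 0.982. Over all measured rows, 2.01% had a widened interval below 1. By the smaller rule, 5.43% of all measured rows were higher and 6.64% lower. Cog1 shares 1116 exonic bases with Fam104a (1989 against 2971 counts), so its counts are uncertain.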

How the data were processed

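The deposited tables hold read counts per gene symbol, not normalized, 1 table per library. Whole numbers with differing totals gave the unit. The submitters' processing notes name the mm10 build and the tools Bowtie2, bedtools and bcl2fastq (2.20.0.422). The annotation, strand use and handling of multiply mapped reads are not given in the sources used here. RNA was extracted with Trizol, per the labels' protocols, and no molecular identifiers are mentioned, so a count is a read and not a molecule.

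Library sizes were adjusted by TMM over all rows (edgeR 4.0.16, R 4.3.3), and CPM is counts per adjusted library size. Ratios had 0.5 added to scaled counts. Intervals are exact conditional binomial (Clopper-Pearson) at 95% (SciPy 1.17.1). The widened interval divides both counts by the mean squared difference over its binomial variance, taken within 1 of 20 bins of level, which ranged from 5.58 to 32.5 for measured members. The bins hold these same measured rows, so the share of all rows whose widened interval leaves out 1 is largely set by the method. A widened interval that leaves out 1 marks a gene as far out among rows of its level and is not a replicate test. Sums and shares use all members of a class. Rn45s, precursor ribosomal RNA, was kept (9.83% of Pink1 siRNA counts, 10.8% of control siRNA counts). Gene positions and exons came from GENCODE M21 (GRCm38, the assembly of mm10).

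Any member could be named. Members past either rule, the 3 most tagged of each class and the one with the largest log2 ratio in size were given fuller values. These were counts or CPM, mostly with the ratio and its counting interval. From other lists, counts were given for up to 4 genes past either rule. A result in the donor synthesis list is not reported here. Members shown otherwise, markers, Vcan, Dcn, Gfpt1, Has2, Nrp1 and Slc35e3 were chosen for completeness or after their values were seen. The members and lists were chosen with earlier results of these data known.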

Additional observations from a re-analysis of the deposited data

How the results depend on the processing

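Each group has 1 library, so no library could be left out and no spread between cultures can be given. No paired analysis was possible with 1 library per group, and the labels give no replicate numbers. The filter decided the counts of called members. With no filter 5 members were higher and 3 lower by the 2-fold rule, and 12 passed the 1.5-fold rule (8 higher, 4 lower). The added 2-fold calls were Chst15, Extl1, Galnt12 and Mgat4a (higher) and B3galt2, Hs3st3a1 and Gpc3 (lower), none with more than 27 counts in a library. With at least 200 summed counts, 0 were higher by the 2-fold rule and 1, B3galt6, passed the 1.5-fold rule. At a ratio of 4, 0 were higher. With the widened interval 0 were higher at 2-fold and 0 passed at 1.5-fold, and the Pink1 ratio of 0.687 was no longer set apart from 1. The median log2 ratio of the members was 0.0096 with total-count scaling and 0.04 with upper-quartile scaling. A change of scaling moves the log2 ratios of all rows by nearly the same amount, so these shifts are not relative to other genes. Upper-quartile scaling gave 6 members past the 1.5-fold rule. Total-count scaling gave 5, as 3 higher and 2 lower. The log2 ratio of each of the 66 measured members stayed within its counting interval under the other scalings and with 5 added. DESeq2 1.42.0 supplied the median-of-ratios scaling.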
